A study of Mus musculus with 18 samples.

Results

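Khdc1a and Khdc1c are paralogous mouse genes that lie side by side on chromosome 1 and encode small proteins of the KH domain family. Each was read by 1 probe, so 2 of the 22911 genes and 2 of the 56605 non-control probes on the arrays were followed, found through the RefSeq accession that the scanner files give for each probe. They were picked because their signal was high in the eutopic endometrium of ERBOE mice, which are described as overexpressing oestrogen receptor beta. Values in that group, and every difference that rests on it, are therefore given as a description without a test, while the uterus and the ectopic lesions were tested.

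The series holds 18 arrays of a single colour in 6 groups of 3, and every array carried total RNA pooled from 3 of the 9 animals of its group. The first pair of groups was eutopic endometrium from ERBOE hosts and from PRCre/+ hosts. These hosts had received a wild-type C57BL/6J uterine fragment, cut with a 2 mm punch, at 8 weeks of age, and tissue was taken at estrus 4 weeks later. The second pair was uterus of ERBOE and PRCre/+ females of 12 weeks, also at estrus and without surgery. The third pair was ectopic lesions grown for 4 weeks from an ERBOE or a PRCre/+ fragment of the same size in intact wild-type C57BL/6J hosts that were 8 weeks old at implantation, so that host cells in these lesions were wild type in both groups. PRCre is a line that carries Cre recombinase at the progesterone receptor gene, and the labels do not describe the construct behind the overexpression. For the ERBOE lesions and the ERBOE eutopic endometrium, the source field of the labels says that the mice had no endometriosis, against the sample titles and the account of the surgery, which were followed here. The account of the eutopic samples also has lesions harvested before it speaks of eutopic endometria being pooled. Pooling hides the spread between animals, so each error below is the spread between pools.

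In mice, genes of the Khdc1 family are known from oocytes and early embryos. Khdc1b has been described there as a partner of the RNA-binding protein CPEB. Khdc1a is also known as Ndg1, a gene switched on downstream of the nuclear receptor Nur77 (Nr4a1) in dying T cells, and its protein has been placed at the endoplasmic reticulum and linked to caspase activation. In the uterus, oestrogen receptor alpha (Esr1) carries most of the response to oestrogen, and oestrogen receptor beta (Esr2) is a second receptor for the same hormone.

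Levels are log2 intensities relative to the 75th percentile of the same array, so 0 is that percentile. The 75th percentile signal was 451.4 to 740 on 17 arrays and 237.3 on PRCre uterus replicate 1. No spot was saturated, and 53.1% to 73.0% of probes per array were well above background in the scanner software's call. The arrays were spread over 3 slides. Slide 1 held no eutopic array and slide 3 no PRCre lesion array.

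Khdc1a was bright in the 2 intact ERBOE tissues and dim in lesions. In ERBOE eutopic endometrium the 3 pools gave levels of 2.15, 1.09 and 1.71, against -2.82, -2.42 and -0.93 in PRCre eutopic endometrium. All 3 ERBOE pools lay above the 75th percentile of their array, and all 3 PRCre pools lay below it. As processed intensities these were 3294, 1446 and 2181 in ERBOE eutopic endometrium, against 89.6, 109.4 and 345.1 in PRCre eutopic endometrium. In uterus the levels were 1.17, 1.31 and 0.08 in ERBOE mice, against -2.36, -1.18 and -1.02 in PRCre mice. The 2 uterus groups did not overlap either, and all 3 ERBOE uterus pools were again above the 75th percentile. In lesions the levels were -5.17, -1.88 and -3.61 in ERBOE lesions, against -4.20, -5.92 and -2.45 in PRCre lesions. These groups overlapped and each held 1 pool in which the probe was not well above background, ERBOE replicate 1 and PRCre replicate 2.

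Khdc1c showed the same bright ERBOE eutopic endometrium and dim lesions, with a smaller genotype gap in uterus. Its levels in ERBOE eutopic endometrium were -0.24, -0.96 and -0.34, against -4.08, -4.07 and -2.66 in PRCre eutopic endometrium, so these groups did not overlap. In uterus they were -0.94, -0.89 and -1.93 in ERBOE mice, against -1.99, -1.66 and -2.53 in PRCre mice. Here ERBOE replicate 3 lay among the PRCre pools, and the groups overlapped. In lesions they were -4.68, -3.45 and -5.13 in ERBOE lesions, against -4.44, -5.27 and -3.55 in PRCre lesions. The lesion groups overlapped over most of their range, and again 1 pool of each, ERBOE replicate 3 and PRCre replicate 2, was not well above background.

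**Figure D1:**
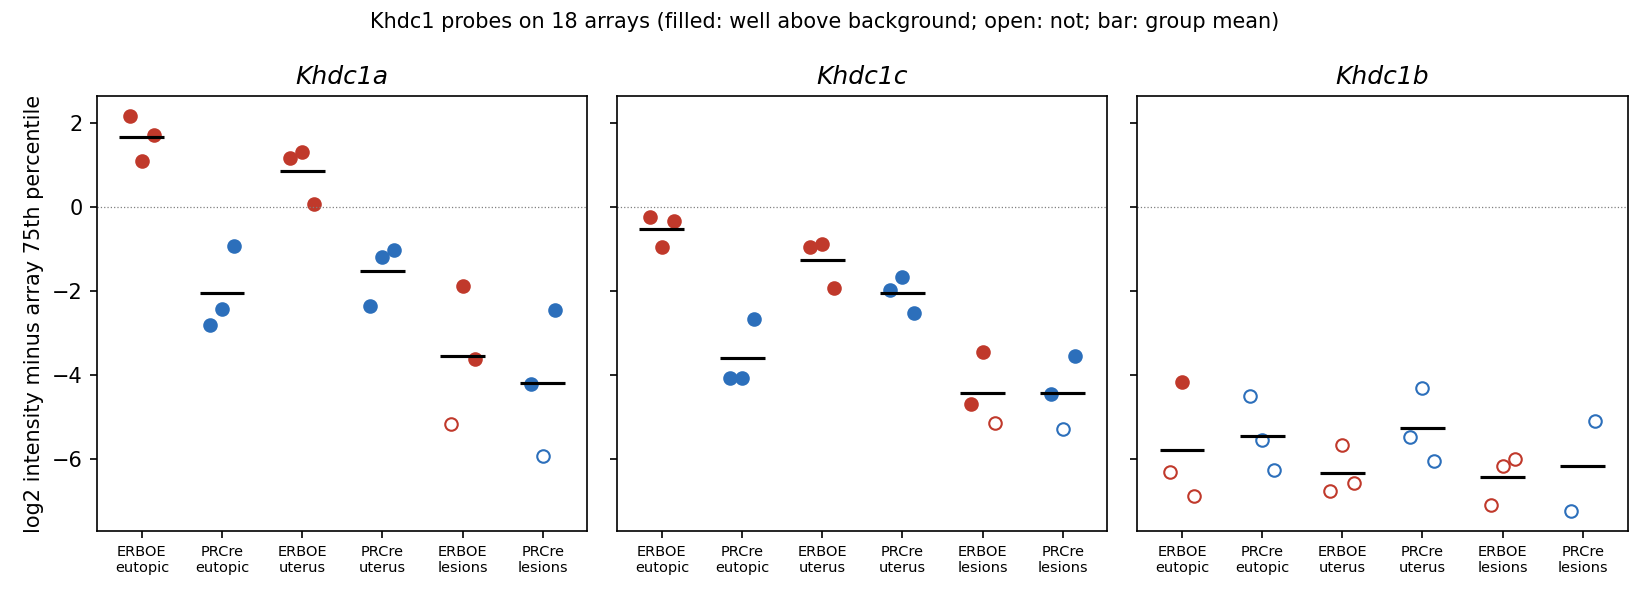
Level of each Khdc1 probe (log2 intensity minus the array's 75th percentile, vertical axis) in the pools of the 6 groups (horizontal axis; red ERBOE, blue PRCre). Points are arrays, filled where the probe was well above background, and bars are group means. Khdc1a and Khdc1c are highest in ERBOE eutopic endometrium and lowest in lesions, whereas Khdc1b is well above background on 1 array.

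Ordered by mean level, Khdc1a was highest in ERBOE eutopic endometrium (1.65 ± 0.53, SD, n = 3 pools here and below), followed by ERBOE uterus (0.85 ± 0.67), PRCre uterus (-1.52 ± 0.73), PRCre eutopic endometrium (-2.05 ± 1.00), ERBOE lesions (-3.56 ± 1.65) and PRCre lesions (-4.19 ± 1.74). The gap between ERBOE uterus and PRCre uterus was the one step in this order at which neighbouring groups did not overlap. Khdc1c followed the same order of groups, with means of -0.52 ± 0.39 in ERBOE eutopic endometrium, -1.25 ± 0.58 in ERBOE uterus, -2.06 ± 0.44 in PRCre uterus, -3.60 ± 0.82 in PRCre eutopic endometrium, and -4.42 ± 0.87 in ERBOE lesions and -4.42 ± 0.86 in PRCre lesions. For Khdc1c the step without overlap lay lower, between PRCre uterus and PRCre eutopic endometrium.

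ERBOE eutopic endometrium was therefore not set apart from ERBOE uterus. The ERBOE eutopic mean was higher than the ERBOE uterus mean by 0.80 for Khdc1a and by 0.74 for Khdc1c on the log2 scale, and the pools of these 2 groups overlapped for both genes. Against PRCre eutopic endometrium, PRCre uterus and both kinds of lesion, all 3 ERBOE eutopic pools were higher for both genes. Nothing is read from that, since the genes were picked for their signal in these pools. Over the whole array 59 features (0.178%) had all 3 ERBOE eutopic arrays above the other 15, and neither gene was among them.

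The eutopic contrast, which holds the ERBOE arrays the genes were picked on, was 3.71 log2 units for Khdc1a (13.1-fold) and 3.09 for Khdc1c (8.49-fold), ERBOE over PRCre. Of 33179 features tested, 7 had an ERBOE minus PRCre difference in eutopic endometrium at least as high as that of Khdc1a and 17 one at least as high as that of Khdc1c. Each count includes the gene itself and rests on the ERBOE values the genes were picked on. All 3 ERBOE pools were above all 3 PRCre pools for 5.11% of features, from which nothing is read here, since the genes were picked for their signal in these ERBOE pools. Within slide 2 the difference was 3.08 for Khdc1a and 2.42 for Khdc1c, and within slide 3 it was 4.02 and 3.42. With normexp background correction of the median signals the Khdc1a difference was 3.17 and the Khdc1c difference 2.02.

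In uterus, where the genes had not been chosen, Khdc1a averaged 0.85 in ERBOE mice and -1.52 in PRCre mice. The difference was 2.37 ± 0.87 log2 units (SE; 95% interval 0.51 to 4.23), a ratio of 5.17, and 131 of 33179 features, Khdc1a included, had one at least as high. It did not pass the adjustment over all features (limma, unadjusted p = 0.0158, Benjamini-Hochberg adjusted p = 0.41). In this comparison limma called 0 of 33179 features (0%), with 3294 at an unadjusted p under 0.05. All 3 ERBOE uteri above all 3 PRCre uteri, as for Khdc1a, was seen for 6.24% of features.

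The uterine Khdc1a difference ran the same way on each slide, at 1.1 on slide 1, 2.49 on slide 2 and 3.52 on slide 3, each from 1 pool per genotype. Fitted with the slide as a block it remained 2.37 (limma, adjusted p = 0.291). Leaving out the faint PRCre uterus replicate 1 gave 1.95 (limma, adjusted p = 0.62). For Khdc1c the uterine difference was 0.80 ± 0.53 log2 units (95% interval -0.33 to 1.94; limma, adjusted p = 0.636), and it was 0.60, 0.77 and 1.04 on slides 1, 2 and 3.

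In lesions, means of the genotypes were closer. Khdc1a differed by 0.64 log2 units between ERBOE and PRCre lesions (95% interval -1.22 to 2.49; limma, adjusted p = 0.994), and Khdc1c by 0.00 (95% interval -1.14 to 1.14; limma, adjusted p = 1.00). Limma called 0 of 33179 features (0%) in lesions, with 1467 at an unadjusted p under 0.05. All 3 ERBOE lesion pools were above all 3 PRCre lesion pools for 5.33% of features and for neither Khdc1 gene. For both genes the interval still holds differences of more than 1 log2 unit in either direction, so similar levels were not established. Within slides the Khdc1a difference was 0.57 on slide 1 and 1.45 on slide 2, and the Khdc1c difference was 0.10 and -0.28. Leaving out 1 array at a time moved it between -0.23 and 1.51 for Khdc1a and between -0.49 and 0.44 for Khdc1c.

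Both genes fell in ERBOE lesions relative to ERBOE uterus. Khdc1a averaged -3.56 in ERBOE lesions and 0.85 in ERBOE uterus, so it fell by 4.41 ± 0.87 log2 units, a ratio of uterus to lesions of 21.2 (95% interval -6.26 to -2.55; limma, adjusted p = 0.0228). Khdc1c averaged -4.42 in ERBOE lesions and -1.25 in ERBOE uterus, so it fell by 3.17 ± 0.53 log2 units, a ratio of uterus to lesions of 8.98 (95% interval -4.30 to -2.03; limma, adjusted p = 0.00899). Each lesion mean includes 1 pool of 3 in which the probe was not well above background, so the ratios are not exact. With signals raised to the lowest one well above background, a setting chosen after seeing the data, the differences were -4.38 for Khdc1a and -2.84 for Khdc1c. All 3 ERBOE lesion pools lay below all 3 ERBOE uterus pools for both genes, as they did for 11.3% of all features. In this comparison 1.24% of features were called in either direction and 0.286% (95 features) were called lower. Among the 33179 features, 14 had a difference at least as low as that of Khdc1a and 59 one at least as low as that of Khdc1c, each count including the gene itself.

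These 2 calls were sensitive to single pools. For Khdc1a the adjusted p was 0.100 without ERBOE uterus replicate 1, 0.0994 without ERBOE uterus replicate 2, 0.119 without ERBOE lesion replicate 1 and 0.0804 without ERBOE lesion replicate 3 (limma), while the difference stayed between -5.24 and -3.60. For Khdc1c it was 0.0545 without ERBOE uterus replicate 1, 0.0534 without ERBOE uterus replicate 2 and 0.0567 without ERBOE lesion replicate 1 (limma), with differences between -3.65 and -2.81. With normexp the differences were smaller, -3.20 for Khdc1a (limma, adjusted p = 0.0024) and -1.77 for Khdc1c (limma, adjusted p = 0.00522). Slides 1, 2 and 3 gave -1.96, -4.92 and -6.34 for Khdc1a and -1.52, -4.25 and -3.74 for Khdc1c, and with the slide as a block the adjusted p was 0.0143 for Khdc1a and 0.0164 for Khdc1c (limma).

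In PRCre tissue the same comparison ran the same way without passing the threshold. Khdc1a averaged -4.19 in PRCre lesions and -1.52 in PRCre uterus, a difference of -2.67 (95% interval -4.53 to -0.81; limma, adjusted p = 0.26). Khdc1c averaged -4.42 in PRCre lesions and -2.06 in PRCre uterus, a difference of -2.36 (95% interval -3.50 to -1.23; limma, adjusted p = 0.135). Limma called 3 of 33179 features here (0.00904%), 1 of them lower (0.00301%), while 3951 were at an unadjusted p under 0.05, and all 3 lesion pools lay below all 3 uterus pools for 9.18% of features, both Khdc1 genes included. On slides 1 and 2 the difference was -1.43 and -3.88 for Khdc1a and -1.02 and -3.20 for Khdc1c. With normexp it was -1.52 for Khdc1a and -1.25 for Khdc1c.

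Whether the lesion and uterus tissues differed more in ERBOE than in PRCre was tested as an interaction, which shares its uterus and lesion arrays with the comparisons above. It was -1.74 ± 1.23 log2 units for Khdc1a (limma, adjusted p = 0.854) and -0.80 ± 0.75 for Khdc1c (limma, adjusted p = 0.911). No feature of 33179 was called (0%), with 2241 at an unadjusted p under 0.05. The passing result in ERBOE and the missed threshold in PRCre are therefore not shown to differ.

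**Figure D2:**
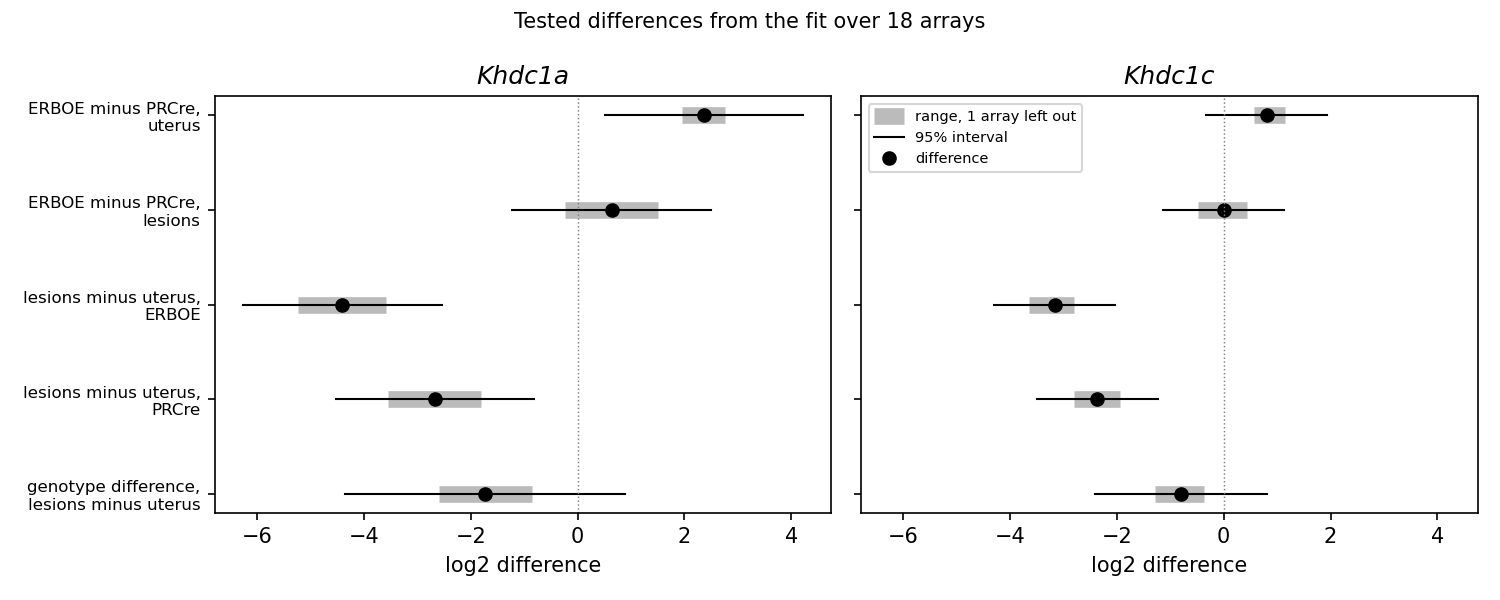
Tested log2 differences (horizontal axis) of Khdc1a and Khdc1c in the 5 comparisons between uterus and lesion groups (rows). The differences use no eutopic mean, but the eutopic arrays enter the variance of the shared model and so the intervals. Points are fitted differences, lines their 95% intervals, and grey bars the range when 1 array at a time is left out. The difference of lesions from uterus in ERBOE tissue is the lowest for both genes, -4.41 for Khdc1a and -3.17 for Khdc1c.

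Against eutopic endometrium, which the choice of genes used, lesions were lower still in ERBOE tissue. The difference of ERBOE lesions from ERBOE eutopic endometrium was -5.21 for Khdc1a and -3.90 for Khdc1c. All 3 lesion pools lay below all 3 eutopic pools. The share of all features that did so was not counted, so nothing is read from it. In PRCre tissue the difference was -2.14 for Khdc1a and -0.82 for Khdc1c, and the pools overlapped for both. In bulk tissue a smaller share of cells that hold a transcript and less of it per cell cannot be told apart, which applies to every difference given here.

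The 2 genes moved together from pool to pool. Over the 18 arrays the levels of Khdc1a and Khdc1c correlated with a Pearson r of 0.945 and a Spearman rho of 0.961. After each group's mean was taken away, so that only differences between pools of the same group remained, r was 0.806. Among 17195 named genes with a signal, each gene was the one most like the other. These are descriptions over arrays that share their tissue and their labelling, and hybridisation of one paralog's transcript to the other's probe cannot be told apart from joint expression, since probe sequences were not used here.

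**Figure D3:**
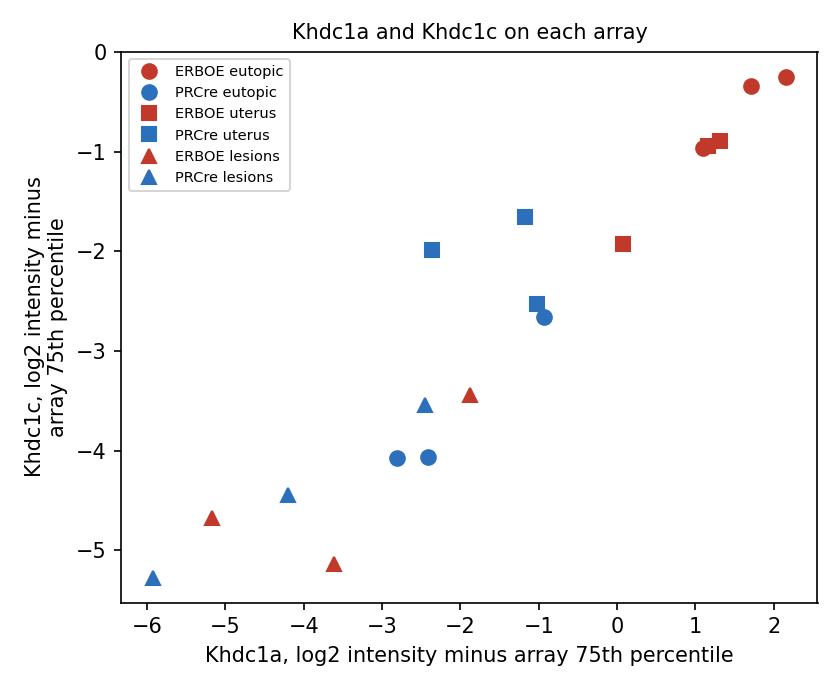
Khdc1a level (horizontal axis) against Khdc1c level (vertical axis), both log2 intensity minus the array's 75th percentile, on each of 18 arrays (red ERBOE, blue PRCre; circles eutopic endometrium, squares uterus, triangles lesions). The arrays run along one diagonal (r = 0.945), with ERBOE eutopic endometrium and ERBOE uterus at its upper end and lesions at its lower end.

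Khdc1b, the third gene of the family on the array, did not follow them. Its probe was well above background on 1 of 18 arrays, ERBOE eutopic endometrium replicate 2, with a level of -4.15 there. Its group means lay between -6.41 and -5.26, so it stayed dim in the tissues in which the other two were bright. The names Khdc1b and Khdc1c have been exchanged between these genes in older annotation, and the probes are named here by accession.

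Other genes with a like pattern were ranked by their correlation with each Khdc1 gene over the 18 arrays. Apart from Khdc1c, those most like Khdc1a were Ppp2r2c (r = 0.917), Dlg3 (0.902), Fzd6 (0.887), Ppip5k2 (0.885), Enkur (0.869), Knop1 (0.862), Glt28d2 (0.858) and D430019H16Rik (0.853). Apart from Khdc1a, those most like Khdc1c were Ppp2r2c (0.859), Casd1 (0.853), Knop1 (0.850), Ppip5k2 (0.850), D430019H16Rik (0.834), Xrcc5 (0.822) and Nanos3 (0.817). Ppp2r2c encodes a regulatory subunit of protein phosphatase PP2A, Fzd6 a Wnt receptor, Dlg3 a scaffold protein of cell junctions and Xrcc5 a DNA repair protein. The 2 lists share Ppp2r2c, Ppip5k2, Knop1 and D430019H16Rik.

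Ppp2r2c headed both lists. Its levels were 0.24, 1.42 and 1.32 in ERBOE eutopic endometrium, against -1.36, -1.19 and -0.88 in PRCre eutopic endometrium. In uterus they were 0.83, 1.15 and 0.91 in ERBOE mice, against -1.36, 0.45 and 0.45 in PRCre mice. In lesions they were -5.01, -1.24 and -2.20 in ERBOE lesions, against -4.32, -3.60 and -1.72 in PRCre lesions. The genotypes were apart in eutopic endometrium and uterus and overlapped in lesions, as for Khdc1a, a likeness for which the gene was picked. Of the genes named on these lists, Ppp2r2c (-3.78; limma, adjusted p = 0.0381), Enkur (-1.66; limma, adjusted p = 0.019) and D430019H16Rik (-1.93; limma, adjusted p = 0.00659) fell in ERBOE lesions relative to ERBOE uterus, and none passed in another comparison. Of all features, 1.24% were called there in either direction, and 0.286% of all features (95) were called lower. The genes were picked for following the Khdc1 genes over these same arrays. A fall in this comparison was thus built into the choice, and the p-values are no separate support.

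Genes on either side of the pair had smaller genotype differences in eutopic endometrium. The 5 annotated genes with a probe before the pair are Gm4956, Gsta3, Gm32947, Tmem14a and Tram2, and the 5 after it, with Khdc1b set aside, are Kcnq5, Rims1, Ppp1r14bl, Gm30442 and Ogfrl1. Of these, 7 were bright enough to test, and Gm32947, Ppp1r14bl and Gm30442 were not. Their ERBOE minus PRCre difference in eutopic endometrium ran from -0.26 for Gsta3 to 0.52 for Kcnq5, against 3.71 for Khdc1a and 3.09 for Khdc1c, which were picked for their ERBOE eutopic signal. In uterus Gsta3, a glutathione S-transferase gene, had the highest of them, 1.66 ± 0.65 (limma, adjusted p = 0.425), and the other 6 lay between -0.67 and 0.35. None of the 7 passed the threshold in any of the 5 tested comparisons, in which 0% to 1.24% of all features were called. With shares that small, the lack of a call is not read as a result about the neighbours.

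**Figure D4:**
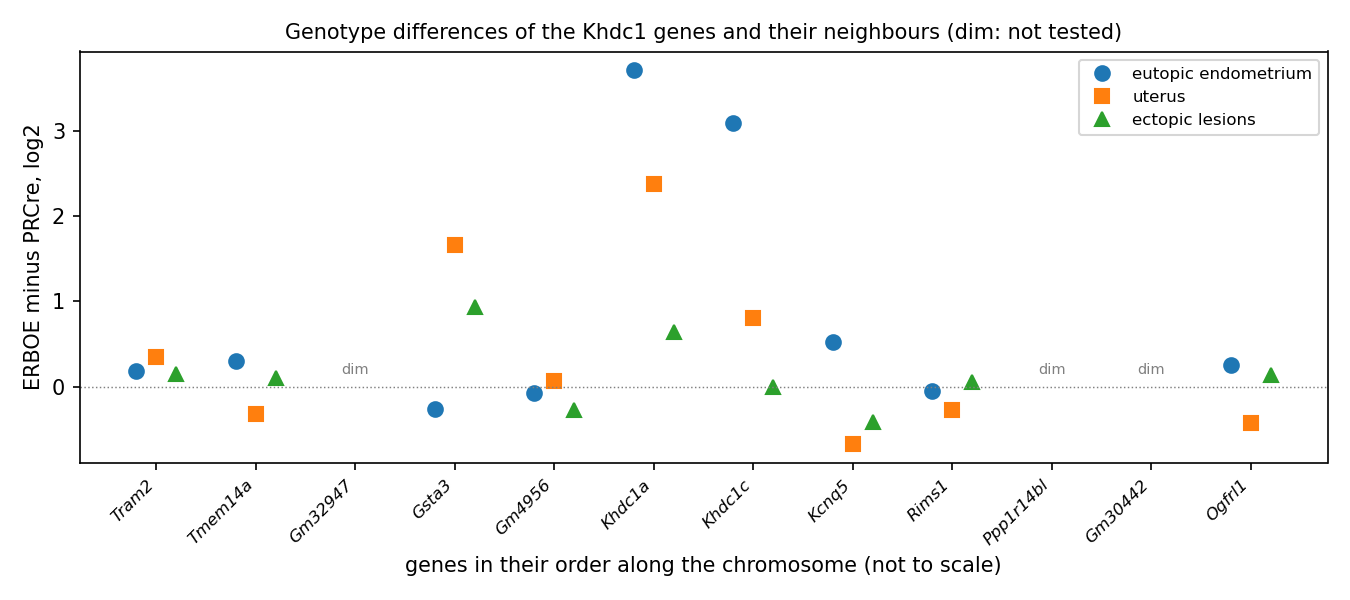
ERBOE minus PRCre difference (log2, vertical axis) in eutopic endometrium, uterus and lesions for Khdc1a, Khdc1c and the 5 annotated genes with a probe on each side, in chromosomal order and not to scale. In eutopic endometrium the 7 neighbours that could be measured lie between -0.26 and 0.52, and the 2 Khdc1 genes lie at 3.71 and 3.09, having been chosen for their signal in ERBOE eutopic endometrium.

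Other oocyte genes of this protein family were followed as a list. The list of KHDC relatives and members of the subcortical maternal complex, a protein assembly of the egg, held 9 genes on the array besides the pair, and 6 were bright enough to test. None passed in any tested comparison. Those between genotypes called 0% of all features, and lesions minus uterus called 1.24% in ERBOE and 0.00904% in PRCre. Their median ERBOE minus PRCre difference was -0.25 in uterus, where the median of all features was -0.12, and -0.15 in eutopic endometrium. Khdc3, a family relative in that complex, had group means of -3.57 in ERBOE eutopic endometrium and -3.59 in PRCre eutopic endometrium. Tle6 averaged -0.18 in ERBOE eutopic endometrium and 0.55 in PRCre eutopic endometrium, and Nlrp5 averaged -1.16 in ERBOE eutopic endometrium and -0.70 in PRCre eutopic endometrium, both without a test.

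Some oocyte markers stayed at background in all groups, and others were read on every array. Of 33 on the array, 19 were bright enough to test and 0 of 19 passed in any tested comparison, next to 0% of all features between genotypes and 1.24% between ERBOE lesions and ERBOE uterus. In ERBOE eutopic endometrium 15 of the 33 were well above background on no array, among them Bmp15, Zp2, Figla, Mos and Oosp1, and in PRCre eutopic endometrium 16 were. On all 3 arrays of the group, 10 of the 33 were well above background in ERBOE eutopic endometrium and 9 in PRCre eutopic endometrium. Gdf9, Lhx8, H1f8, Npm2, Astl and Kit were well above background on 18 of 18 arrays, and Oosp1 in 2 ERBOE and 3 PRCre lesion pools. Bmp15 and Figla, which are defining genes of the growing oocyte, were well above background on 0 of 18 arrays. The summed level of the 33 markers, in multiples of the 75th percentile signal, was 2.18 to 3.08 in ERBOE eutopic endometrium and 3.13 to 3.65 in PRCre eutopic endometrium. In uterus it was 1.65 to 3.40 in ERBOE mice and 3.11 to 4.34 in PRCre mice, and these ranges overlap. The median difference of the 19 was -0.43 in uterus and -0.26 in eutopic endometrium, and within slides the eutopic value was 0.16 on slide 2 and -0.47 on slide 3. Bmp15, at background on every array, also averaged lower in ERBOE (-7.54) than in PRCre eutopic endometrium (-6.76). The part of the background level in these list values was not tested.

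Genes linked to Nur77 and to cell death were followed too. Nr4a1, which encodes Nur77, averaged 1.17 in ERBOE uterus and 1.74 in PRCre uterus, and 1.20 in ERBOE eutopic endometrium and 1.36 in PRCre eutopic endometrium. Its SD was 3.12 over the PRCre uterus pools and 0.63 over the ERBOE uterus pools. Of 8 genes of the Nur77 family and its reported targets, 0 passed in any tested comparison, and of 19 caspase, apoptosis and endoplasmic reticulum stress genes 0 passed, with the same shares of all features beside them as for the oocyte markers. In uterus, where the median difference of all features was -0.12, their median differences were -0.53 for the Nur77 list and 0.08 for the cell death list. Within slides 1, 2 and 3 the Nur77 list gave -0.26, -0.89 and -0.13. T cell markers went both ways. In eutopic endometrium 7 of 11 had a higher and 4 a lower mean in ERBOE, with a median difference of 0.13 (0.45 on slide 2 and -0.14 on slide 3). Cd3e, a defining T cell gene, averaged 1.21 in ERBOE eutopic endometrium and 1.61 in PRCre eutopic endometrium. The other CD3 genes ran the other way by their means. Cd3d averaged -0.83 in ERBOE and -0.88 in PRCre eutopic endometrium, and Cd3g averaged -1.59 in ERBOE and -1.98 in PRCre eutopic endometrium. Thy1, which other cells also carry, averaged 5.04 in ERBOE eutopic endometrium and 3.15 in PRCre eutopic endometrium. The summed level of the list, in which Thy1 is the brightest gene, was 31.1 to 55.1 in ERBOE eutopic endometrium and 15.3 to 20.9 in PRCre eutopic endometrium. None of the 11 passed in uterus or lesions, where 0% of all features did. Their part in the Khdc1 difference was not tested.

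Markers of endometrial epithelium, like the Khdc1 genes, had higher group means in ERBOE than in PRCre uterus. All 8 had a higher mean in ERBOE than in PRCre uterus, with a median difference of 1.70, where the median of all features was -0.12. In the adjusted test 0 of 8 passed, next to 0% of all features. Their summed level was 265.9 to 611.6 in ERBOE uterus and 117 to 219.2 in PRCre uterus, so the groups did not overlap. Epcam averaged 1.92 in ERBOE uterus and 0.31 in PRCre uterus, and the cytokeratin gene Krt19 averaged 6.31 in ERBOE uterus and 3.91 in PRCre uterus. The median difference was 1.52, 1.94 and 1.91 on slides 1, 2 and 3 and 1.70 with the slide as a block. Among PRCre uterus replicates 1, 2 and 3 the mean epithelial level was 2.90, 2.51 and 2.24. Khdc1a there was -2.36 (on the faint array), -1.18 and -1.02, the reverse order, and each of these pools was on a different slide. In ERBOE uterus the epithelial levels were 4.68, 4.37 and 3.72 and the Khdc1a levels 1.17, 1.31 and 0.08. Endometrial stroma markers went the other way in uterus, with 6 of 8 lower in ERBOE by their means and a median difference of -0.64. Of these 8 stroma markers 0 passed, next to 0% of all features. Their summed level was 379.4 to 494.9 in ERBOE uterus and 534.8 to 982.3 in PRCre uterus. The part of either list in the uterine Khdc1 values was not tested.

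In eutopic endometrium 2 of 8 epithelial markers had a higher mean in ERBOE than in PRCre, and the median difference was -0.31 (-0.58 on slide 2 and -0.06 on slide 3). The summed level was 161.6 to 391 in ERBOE eutopic endometrium and 99.2 to 673.4 in PRCre eutopic endometrium, which contains the ERBOE range. Among the PRCre eutopic pools, replicate 1 had a mean epithelial level of 2.12 and a Khdc1a level of -2.82, replicate 2 had 4.66 and -2.42, and replicate 3 had 4.05 and -0.93. The pool lowest in epithelial markers was thus also the lowest in Khdc1a, while the pool highest in epithelial markers was not the highest in Khdc1a. Smooth muscle markers had a lower mean in ERBOE for 6 of 6 in eutopic endometrium, with a median difference of -0.49 (-0.34 on slide 2 and -0.43 on slide 3). Adipocyte markers also had a lower mean for 6 of 6, with a median of -0.51, but the within-slide medians were 3.05 on slide 2 and -2.04 on slide 3. The smooth muscle sum was 447.5 to 589.7 in ERBOE eutopic endometrium and 557.3 to 1003 in PRCre eutopic endometrium. The part of these lists in the eutopic Khdc1 values was not tested.

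**Figure D5:**
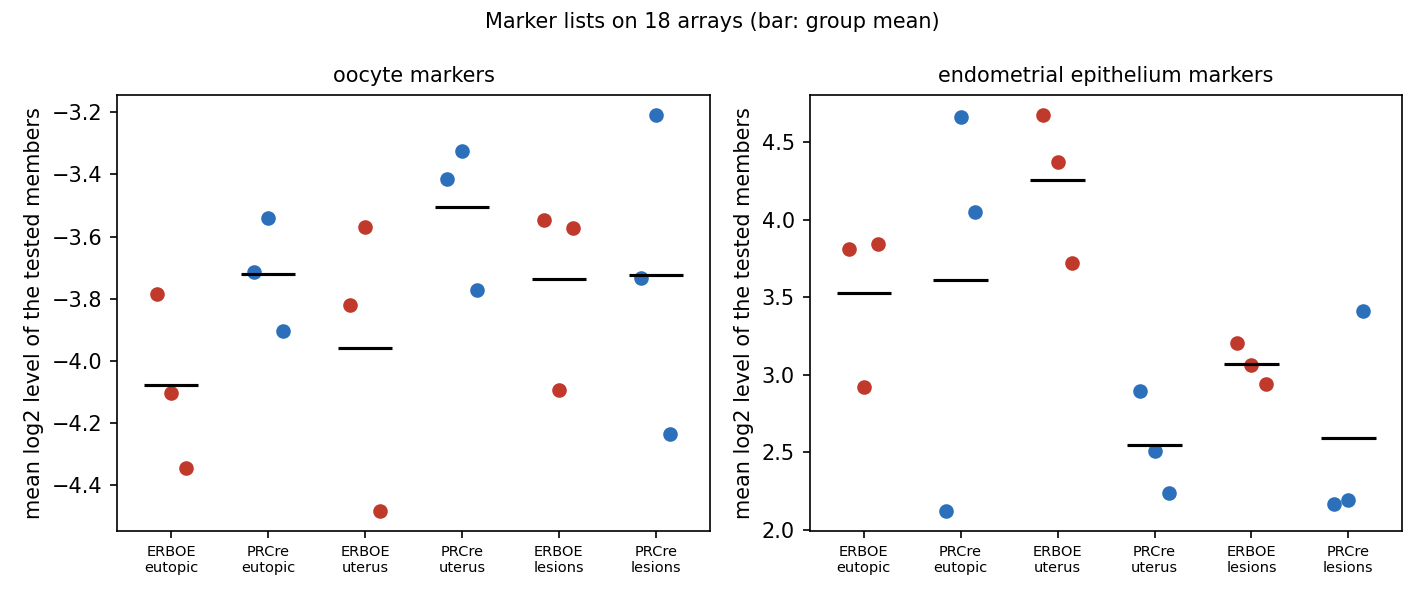
Mean log2 level (vertical axis) of the tested oocyte markers (left) and of the 8 endometrial epithelium markers (right) on each array by group (red ERBOE, blue PRCre; bars are group means). Epithelial markers are higher in ERBOE than in PRCre uterus and overlap in eutopic endometrium. Oocyte markers are lower in ERBOE than in PRCre eutopic endometrium by their group means, with pools that overlap.

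Mean levels of some cell type markers also differed between lesions and uterus. In ERBOE tissue 7 of 8 epithelial markers had a lower mean in lesions, with a median difference of -1.24, against -4.41 for Khdc1a and -3.17 for Khdc1c. In PRCre tissue 2 of 8 did, and the median difference was 0.38. In both comparisons 0 of 8 passed, next to 1.24% of all features in ERBOE and 0.00904% in PRCre. The summed epithelial level was 187.8 to 368.1 in ERBOE lesions and 265.9 to 611.6 in ERBOE uterus, and these ranges overlap. Of 6 adipocyte markers, 5 (Adipoq, Plin1, Fabp4, Cfd and Lipe) rose in ERBOE lesions relative to ERBOE uterus (limma), with a median difference of 8.13 over the 6. Of all 33179 features, 1.24% were called in that comparison, 316 of them higher. In PRCre tissue 0 of the 6 passed, with a median difference of 5.97, where 0.00904% of all features were called. Their summed level was 311.3 to 493.5 in ERBOE lesions and 0.488 to 2.06 in ERBOE uterus. In PRCre tissue it was 75.3 to 336.5 in lesions and 0.975 to 1.84 in uterus. The part of these markers in the lower Khdc1 values of lesions was not tested.

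The hormone receptor genes had small genotype differences that did not pass the test. Esr2, the gene whose overexpression defines ERBOE, averaged 2.46 in ERBOE uterus and 2.71 in PRCre uterus (difference -0.24 ± 0.20; limma, adjusted p = 0.711). In eutopic endometrium it averaged 2.45 in ERBOE hosts and 2.44 in PRCre hosts, and in lesions 2.20 in ERBOE lesions and 2.46 in PRCre lesions. A transgene transcript that lacks the probe's sequence would not be read, and the labels do not say whether it carries that sequence, so these values do not check the genotype. Esr1 differed between ERBOE and PRCre uterus by 0.06 (limma, adjusted p = 0.967) and Pgr, the progesterone receptor gene, by -0.27 (limma, adjusted p = 0.905). The genotype of each array is thus taken from its sample title.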

How the data were processed

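Total RNA pools were hybridised to 1-colour Agilent mouse arrays (25 ng of RNA, 600 ng of labelled cRNA). Per the file headers, the deposited spot intensity had been background-subtracted by the authors' scanner software but not scaled from array to array. A deposited table of log2 values covers the same arrays. These correlated at 0.995 to 0.998 with the scanner values centred per probe, and their column medians were -0.15 to 0.36. That table is used as an alternative, and how it was prepared is not given in the sources.

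From the intensity, control and outlier spots were dropped, log2 was taken, levels were set relative to the array's 75th percentile, and repeat spots were averaged. Probes well above background on at least 3 of 18 arrays were kept. RefSeq (GRCm38.p6) named 32994 of 56605 probes, and each of 22911 symbols was represented by its brightest probe. As the table's build differs from that of the arrays, no coordinates are printed. One limma model (limma 3.58.1, R 4.3.3, residual degrees of freedom 12, prior 2.5) held the 6 group means, with 2-sided tests and Benjamini-Hochberg adjustment over 33179 features at 0.05. Because replicates are pools, p-values measure the spread between these pooled samples. The model was tested on simulated data. The number of arrays limits the precision.

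Alternatives were normexp (offset 50) on the median rather than the mean signal, which the files do not hold, quantile scaling, the value table, other filters, every probe separately, slide and replicate blocks, other variance models, fewer groups and arrays left out. Named are the Khdc1 probes, Esr1, Esr2 and Pgr, the 8 genes most like each Khdc1 gene (1 of them is not reported here), 5 neighbours each side, and members of lists past the threshold or, otherwise, at most 4. Thy1, Tle6, Bmp15 and other list genes beyond these were picked after their values were seen. The Khdc1 genes and the lists were chosen with earlier results of these data known.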

Additional observations from a re-analysis of the deposited data

How the results depend on the processing

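The differences of Khdc1a and Khdc1c kept their direction under every alternative that could give a value, except Khdc1c between ERBOE and PRCre lesions, 0.00 as reported and -0.20 with array weights, and the lesion differences with 1 array left out. The fall of ERBOE lesions from ERBOE uterus missed the threshold when only the groups compared were fitted (Khdc1a -4.41, limma adjusted p = 0.0853; Khdc1c -3.17, limma adjusted p = 0.0621) and, for Khdc1a, without the 6 eutopic arrays (-4.41, limma adjusted p = 0.0686), an alternative chosen after seeing the data like the raised signals below. Both settings leave fewer arrays. Requiring a signal well above background on all 18 arrays removed both genes. Normexp moved the eutopic difference of Khdc1c to 2.02.

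With 1 array left out, uterus ERBOE minus PRCre was 1.95 to 2.76 for Khdc1a and 0.57 to 1.14 for Khdc1c, eutopic endometrium 3.33 to 4.27 and 2.85 to 3.56, and lesions -0.23 to 1.51 and -0.49 to 0.44. Lesions minus uterus was -5.24 to -3.60 and -3.65 to -2.81 in ERBOE, -3.54 to -1.81 and -2.80 to -1.94 in PRCre, and the interaction -2.60 to -0.86 and -1.29 to -0.37. Called features were 0 to 3 in uterus, 0 to 3 in lesions, 0 to 1 in eutopic endometrium, 121 to 546 and 1 to 63 for lesions minus uterus in ERBOE and PRCre, and 0 to 1 for the interaction.

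Counts of called features moved as follows, and the cause was not tested. ERBOE against PRCre lesions, 0 as reported, gave 2 with normexp, 1 with the filter on all 18 arrays, 1 with trended and robust variance, 6 with array weights and 4 with signals raised to the lowest one well above background. The uterus comparison gave 1 with the filter on all 18 arrays, and the interaction 2 with raised signals. Lesions minus uterus in PRCre, 3 as reported, gave 108 with normexp, 43 with quantile scaling, 9 with that filter, 46 with trended and robust variance, 64 with array weights, 0 with only the groups compared, 21 without eutopic arrays and 10 with raised signals. In ERBOE, 411 as reported, it gave 1981 with array weights and 246 without eutopic arrays.

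The replicate numbers gave no sign of pairing between samples, though a median cannot exclude pairing of some pools. Deviations from group means correlated at a median of 0.03 (-0.35 to 0.45) over 45 same-numbered pairs of arrays. Over 90 others the median was -0.02 (-0.38 to 0.40). With the replicate number as a block the Khdc1 differences were unchanged, the ERBOE calls held (limma adjusted p = 0.0327 for Khdc1a and 0.0207 for Khdc1c) and PRCre lesions minus uterus gave 15 features.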
